A study of Mus musculus with 8 samples.

Results

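The genes described here are 4 copies of Dynlt1 on mouse chromosome 17 (Dynlt1a, Dynlt1b, Dynlt1c and Dynlt1f) and a pair of genes that lie beside them, Tmem181a and the pseudogene Tmem181b-ps. They were taken by name from the table of 17127 genes, and all 6 were present. They were chosen because Dynlt1b was nearly lost in some Iqch mutant testes, so their differences between mutant and wild-type testes are given as descriptions, with no test. The study asked what the loss of Iqch, a testis gene with an IQ motif, does to spermatogenesis, and measured RNA of whole testes from wild-type mice and from Iqch-/- mice, both aged 4 months. Of the 8 samples of the series, 7 libraries of 1 mouse each were analysed: wild type 1 to 4 and mutants 1, 2 and 4. No values were given for mutant 3, so it is not analysed here. The study left out 1 mutant sample that it considered an outlier, and its text does not give the number of that sample. The mutants carry a CRISPR deletion in exon 19 of Iqch and descend from zygotes of a cross of C57BL/6 and CBA mice. They were homozygous. The study names the mutant line of its RNA-seq coverage plot as mu7, but elsewhere uses a common name for both of its mutant lines. The line of each library is not given. The labels do not say whether the controls were littermates or from which parental strain the chromosome 17 of each mouse came.

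DYNLT1, also called TCTEX1, is a light chain of cytoplasmic dynein, the motor that carries cargo toward the minus ends of microtubules. It works as a dimer that binds the intermediate chain of the motor and also binds other proteins. Its gene was first described as a testis-expressed gene of the t complex, a region of mouse chromosome 17 known for variant haplotypes that affect male transmission and fertility. Tmem181 encodes a membrane protein with several transmembrane segments.

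The copies are nearly identical in sequence where they align, which bears on every value below. In GENCODE M39 on GRCm39, each of the 4 Dynlt1 copies has 5 exons and a coding sequence of 342 bases. Dynlt1a, Dynlt1c and Dynlt1f do not differ at any of these bases, and neither does Dynlt1-ps1 (ENSMUSG00000082691), a processed pseudogene on chromosome 6 from 135326406 to 135326747 that was not among the 6 genes. Dynlt1b differs from them at 1 base, C21A, counted from 1 at the first base of the coding sequence. The change falls on base 3 of codon 7 and leaves the amino acid the same. The 29 coding bases around it are shown 5′ to 3′ with the base that separates Dynlt1b in capitals. In the 4 chromosome 17 copies they cross the junction of exons 1 and 2, and in Dynlt1-ps1 they are unbroken.
Dynlt1a, Dynlt1c, Dynlt1f and Dynlt1-ps1: gacttccaggcctcCgaggagactgcatt
Dynlt1b: gacttccaggcctcAgaggagactgcatt
The capital base lies at position 6367655 in Dynlt1a (minus strand), 6697631 in Dynlt1b (plus strand), 6869229 in Dynlt1c (plus strand) and 6923179 in Dynlt1f (minus strand) of chromosome 17, and at 135326727 of chromosome 6 (minus strand) in Dynlt1-ps1. Where the transcripts align best, the copies were alike as well. Between Dynlt1a and Dynlt1b 778 of 788 aligned bases were identical. The counts were 764 of 771 between Dynlt1b and Dynlt1f, and 770 of 771 between Dynlt1c and Dynlt1f. In these pairs the aligned bases are only a part of the longer transcripts, which have 3338 bases for Dynlt1a and 2589 for Dynlt1c.

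The Tmem181 genes form a set of the same kind. Tmem181a is protein coding, while Tmem181b-ps and a further copy, Tmem181c-ps (ENSMUSG00000093880, chromosome 17 from 6881152 to 6907189), are annotated as transcribed unprocessed pseudogenes. Tmem181a and Tmem181b-ps shared 1406 of 1413 aligned bases. The first base of the Tmem181a coding sequence at which Tmem181b-ps differs is T30C, shown in capitals within 29 bases that are unbroken in the genome.
Tmem181a (chr17:6330880-6330908, plus strand): cccatgcggctctaTacgctctccaagcg
Tmem181b-ps (chr17:6734386-6734414, minus strand): cccatgcggctctaCacgctctccaagcg
Tmem181c-ps (chr17:6907154-6907182, minus strand): cccatgcggctctaTacgctctccaagcg

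How far single reads can tell the copies apart was measured by cutting each transcript into all windows as long as the reads. Exact matches were then sought elsewhere in the genome or in the transcripts of other genes. The reads were paired, and a read may be placed by its mate, so these shares may be too low for pairs. Of the windows of Dynlt1b, 161 of 687 (23.4%) were found in no other place. The share was 49% for Dynlt1a (1574 of 3214), 11.6% for Dynlt1c (285 of 2465) and 19.3% for Dynlt1f (of 647 windows). Within the coding sequence, none of the 218 windows of Dynlt1a, Dynlt1c or Dynlt1f was found in that gene alone, and 21 of 218 (9.63%) were in Dynlt1b alone. Dynlt1-ps1 had 0 such windows of 218, since every window of it also occurs in a spliced Dynlt1 transcript. In the unspliced genome only 2 of these 218 windows occur outside Dynlt1-ps1, because introns interrupt the rest in the other copies. The share was 64.7% for Tmem181a (2770 of 4281), 9.86% for Tmem181b-ps (140 of 1420) and 54.4% for Tmem181c-ps (686 of 1262). How the counting treated reads that match several places is not given in the sources used here, so the part of read sharing in any single copy's value was not tested.

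**Figure D1:**
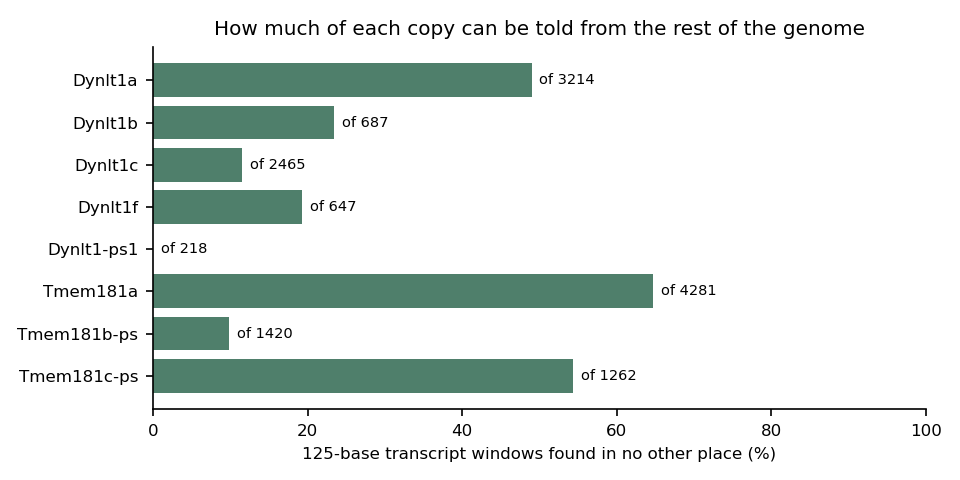
Share of all read-length windows of each transcript that match no other place in the genome or in transcripts of other genes, in percent, with the number of windows beside each bar. Tmem181a (64.7%), Tmem181c-ps (54.4%) and Dynlt1a (49%) have the highest shares, and Dynlt1-ps1 has none.

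The values are CPM, a gene's count scaled to 1000000 reads for each library. The libraries held between 32064384 and 37551057 reads on the listed genes. Iqch, the targeted gene, was at 193 to 217 CPM in wild-type and 64.8 to 69.2 CPM in mutant testes. Whole-testis RNA mixes cell types: all 7 spermatid markers fell, their sum going from between 20405 and 21545 CPM to between 12950 and 14907 CPM, and 5 of 5 Sertoli cell, 4 of 5 Leydig cell and 4 of 4 macrophage markers rose (limma, FDR below 0.01). Of the other lists, 3 of 5 spermatogonial markers rose, 1 of 5 spermatocyte markers fell and 1 of 4 peritubular and endothelial markers rose. No marker was at 0 in any library. By flow cytometry of older mice, the study found a lower proportion of haploid cells in mutant testes, with the proportions of diploid and tetraploid cells not affected. From the RNA values alone, fewer cells of a type and less RNA per cell cannot be told apart. The part of cell makeup in the values below was not tested.

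Dynlt1b (ENSMUSG00000096255, chromosome 17 from 6697471 to 6703695, plus strand) was at 135, 229.9, 221 and 124 CPM in wild type 1 to 4. Its level was 23.0 CPM for mutant 1 but 0.780 and 0.584 CPM for mutants 2 and 4. Mutants 2 and 4 were thus close to the bottom of the scale, mutant 1 held a level between them and the wild type, and no mutant reached a wild-type value. With the smallest step of each library taken as 1 read, the mutant values rest on 801, 25 and 19 reads, with exact 95% Poisson intervals of 21.4 to 24.7, 0.505 to 1.15 and 0.351 to 0.911 CPM, which cover counting error only. The intervals of mutants 2 and 4 overlap, and that of mutant 1 lies above both. The means were 178 ± 55.8 CPM (SD, n = 4) in the wild type and 8.13 ± 12.9 CPM (SD, n = 3) in the mutants, a ratio of 21.9. On the log2(CPM + 0.1) scale the mutant was lower by a difference of -6.15, which became -7.78 without mutant 1.

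Dynlt1a (ENSMUSG00000092074, from 6356613 to 6367792, minus strand), which encodes the same protein, went the other way. It was at 49.6, 26.9, 27.1 and 47.4 CPM in wild type 1 to 4 and at 55.1, 52.9 and 56.2 CPM in the mutants. The mutants lay close together and above every wild-type library, while the wild types lay far apart. The log2 difference was 0.60, with means of 37.8 ± 12.4 CPM (SD, n = 4) and 54.8 ± 1.70 CPM (SD, n = 3). With median-of-ratios size factors the groups of Dynlt1a overlapped and the log2 difference was 0.46.

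Dynlt1c (ENSMUSG00000000579, from 6869051 to 6879446, plus strand) and Dynlt1f (ENSMUSG00000095677, from 6914001 to 6923299, minus strand) were lower in the mutants by less. Dynlt1c was at 25.2, 32.04, 29.5 and 28.6 CPM in the wild type and at 17.1, 16.7 and 16.8 CPM in the mutants, with a log2 difference of -0.76. Dynlt1f was at 72.8, 71.9, 65.8 and 73.1 CPM in the wild type and at 57.4, 56.7 and 57.5 CPM in the mutants, with a log2 difference of -0.31. Neither showed the gap of mutant 1 that Dynlt1b had: the highest mutant value was 1.03 times the lowest for Dynlt1c and 1.01 times for Dynlt1f, against 39.4 times for Dynlt1b.

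Tmem181b-ps (ENSMUSG00000096780, from 6708801 to 6757783, minus strand), the next listed gene on the chromosome after Dynlt1b, followed the pattern of Dynlt1b. It was at 22.3, 32.3, 30.7 and 25.1 CPM in wild type 1 to 4, and at 7.58, 1.06 and 0.676 CPM in mutants 1, 2 and 4. Mutant 1 was again the highest mutant, on 264 reads against 34 and 22. The means were 27.6 ± 4.66 CPM (SD, n = 4) and 3.11 ± 3.88 CPM (SD, n = 3), with a log2 difference of -3.85, which became -4.85 without mutant 1.

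Tmem181a (ENSMUSG00000038141, from 6307113 to 6358591, plus strand) was at 8.65, 8.30, 6.73 and 10.4 CPM in the wild type and at 13.2, 13.9 and 12.7 CPM in the mutants. Every mutant was above every wild type, also after size factors, and the log2 difference was 0.65. Its end overlaps the 3′ end of Dynlt1a on the opposite strand, and the strand setting of the counting is not given in the sources used here, so reads of the overlap cannot be assigned to either gene. Both members of this overlapping pair were higher in the mutants.

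All 6 genes thus had groups that did not overlap on the deposited scale, 2 with higher and 4 with lower mutant values. Over all 17126 genes that passed the minimum, 62.3% had groups that did not overlap, 42.8% with higher and 19.5% with lower mutant values, and nothing is read from the count of 6, since the genes were chosen on this contrast. Across all tested genes the median log2 difference was 0.12, and size factors brought it to -0.01. After them 32.7% of genes were higher and 31.6% lower without overlap, while 1 of the 6 genes was higher, 4 were lower and Dynlt1a overlapped.

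**Figure D2:**
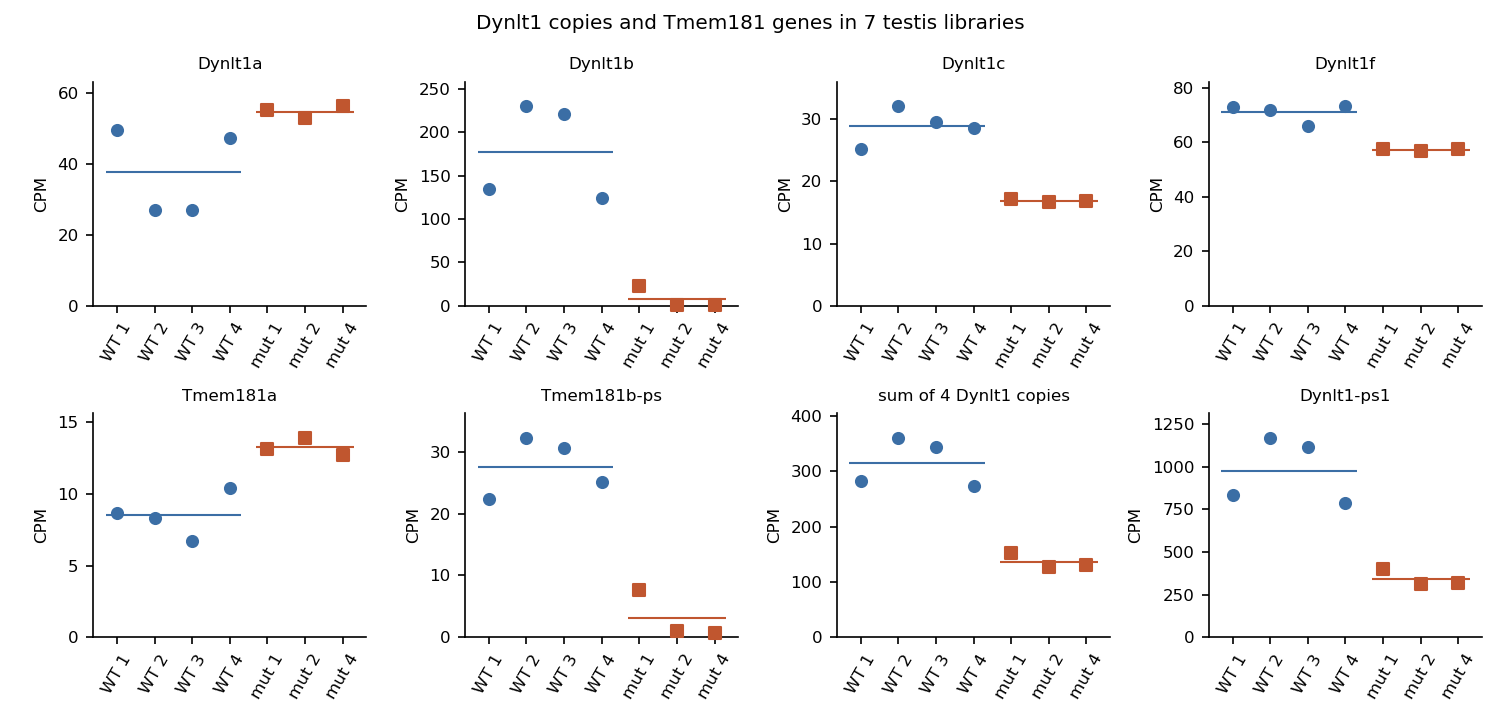
CPM in each of the 4 wild-type (WT, circles) and 3 mutant (mut, squares) libraries for the 6 genes, for the sum of the 4 Dynlt1 copies and for Dynlt1-ps1, with a line at each group's mean and a y axis from 0 in each panel. Mutant 1 stands above mutants 2 and 4 for Dynlt1b (23.0 against 0.780 and 0.584 CPM) and Tmem181b-ps, and wild types 2 and 3 are the highest for Dynlt1b and the lowest for Dynlt1a.

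If each shared read was counted for 1 copy only, summing the copies sets aside which copy that was. Reads given to Dynlt1-ps1 stay outside the sum. If shared reads were dropped, or counted at every match, the sum does not set this aside. Which of these was done is not given. The sum of the 4 Dynlt1 copies was 282, 361, 344 and 273 CPM in wild type 1 to 4 and 153, 127 and 131 CPM in mutants 1, 2 and 4. Every mutant was below every wild type, and the mutants no longer stood far apart from each other. The means were 315 ± 43.7 CPM (SD, n = 4) and 137 ± 13.7 CPM (SD, n = 3), a ratio of 2.30 and a log2 difference of -1.20. Without Dynlt1b, the sum of Dynlt1a, Dynlt1c and Dynlt1f was 148, 131, 122 and 149 CPM in the wild type and 129.6, 126 and 131 CPM in the mutants. These 3 copies together overlapped between the groups, with a log2 difference of -0.09, but after size factors they were lower in every mutant, at -0.22.

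The make-up of the sum differed between libraries. Dynlt1b was 47.7, 63.7, 64.4 and 45.5% of it in wild type 1 to 4, and 15.1, 0.613 and 0.445% in mutants 1, 2 and 4. Dynlt1a was 17.6, 7.45, 7.89 and 17.3% in the wild type, and 36.1, 41.6 and 42.9% in the mutants. Dynlt1b was thus the largest part in each wild-type library, and Dynlt1f the largest in each mutant, at 37.6, 44.6 and 43.8%.

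**Figure D3:**
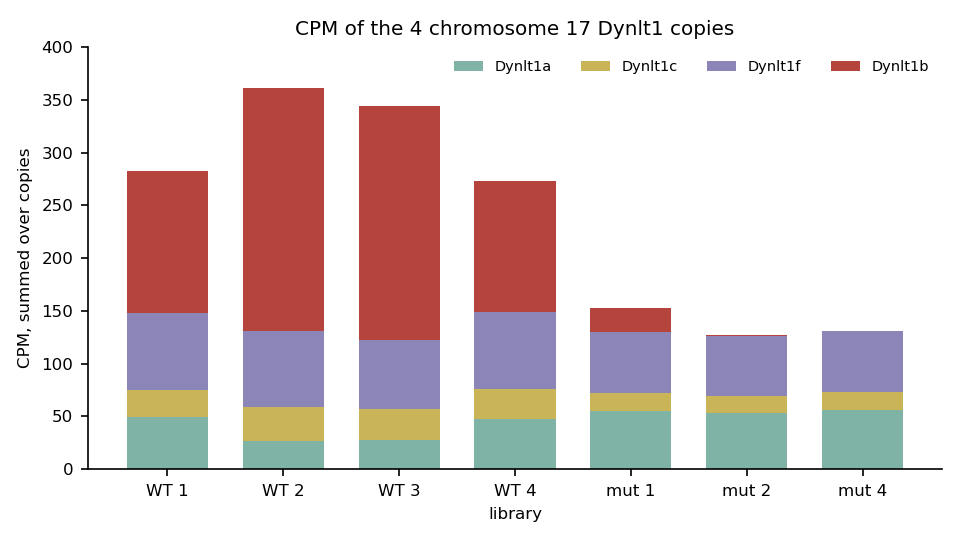
CPM of Dynlt1a, Dynlt1c, Dynlt1f and Dynlt1b stacked for each wild-type (WT) and mutant (mut) library, on a linear axis from 0. The part of Dynlt1b makes up most of the gap between the groups, and without it the stacks reach 122 to 149 CPM in the wild type and 126 to 131 CPM in the mutants.

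The pseudogene Dynlt1-ps1 had more reads counted for it than the 4 copies together. It was at 835, 1169.9, 1116 and 789.5 CPM in wild type 1 to 4 and at 399, 315 and 321 CPM in the mutants. The wild types kept the order of Dynlt1b, with 2 above 3, 1 and 4, and so did mutant 1 above the others. Its log2 difference was -1.49. Dynlt1-ps1 took 74.3 to 76.4% of the sum over all 5 genes in the wild type and 71 to 72.3% in the mutants, a narrower range than that of any of the 4 chromosome 17 copies relative to its level. With it included, the sum was 1117, 1531, 1460 and 1063 CPM in the wild type and 551, 442 and 452 CPM in the mutants, with a log2 difference of -1.41. Its 342 bases are those of the coding sequence that the other copies share, and each of its 218 windows also occurs in a spliced Dynlt1 transcript. Single reads that lie within Dynlt1-ps1 thus cannot be told by sequence from reads of the chromosome 17 copies.

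Per length, the level of Dynlt1b was above those of the other chromosome 17 copies in the wild type. Divided by the length of its transcript, it stood at 219 ± 68.8 CPM per kb (SD, n = 4), followed by Dynlt1f at 92.0 ± 4.44, Tmem181b-ps at 17.9 ± 3.02, Dynlt1a at 11.3 ± 3.73, Dynlt1c at 11.1 ± 1.10 and Tmem181a at 1.93 ± 0.343 CPM per kb. Dynlt1a and Dynlt1c do not differ beyond their spread in this order. The lengths are those of the transcripts compared above. They were not adjusted for the unequal shares of windows found in no other place, on which the order may depend. In the mutants the order was Dynlt1f at 74.2 ± 0.522, Dynlt1a at 16.4 ± 0.511, Dynlt1b at 10.02 ± 15.9, Dynlt1c at 6.52 ± 0.0877, Tmem181a at 3.01 ± 0.137 and Tmem181b-ps at 2.01 ± 2.51 CPM per kb (SD, n = 3). The levels of Dynlt1b and of Tmem181b-ps in the mutants have a spread as large as their mean, so their places in this order rest on mutant 1. Dynlt1-ps1 was at 2859 ± 565 and 1008 ± 137 CPM per kb, on a length of 342 bases, which leaves out the untranslated parts that the other transcripts include.

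Among the wild-type mice themselves, Dynlt1a and Dynlt1b were widely spread. The highest wild-type value of Dynlt1b was 1.85 times the lowest, and of 7939 genes with a wild-type mean of at least 20 CPM, 15 had a ratio this large or larger. For Dynlt1a the ratio was 1.84, reached by 17 of the 7939 genes, whose median ratio was 1.12. Wild types 2 and 3 held the high values of Dynlt1b and the low values of Dynlt1a, and wild types 1 and 4 the reverse. The 95% counting intervals of Dynlt1a, 25.2 to 28.7 and 25.4 to 29 CPM in wild types 2 and 3 against 47.2 to 52 and 45.3 to 49.7 CPM in wild types 1 and 4, were far from meeting. Dynlt1f stood apart from this: its ratio of 1.11 was reached by 4192 of the genes. The wild-type ratio was 1.27 for Dynlt1c (reached by 504 genes), 1.44 for Tmem181b-ps (89 genes) and 1.48 for Dynlt1-ps1 (67 genes). In each of these, wild types 2 and 3 were the highest. Among the mutants the ratio was 39.4 for Dynlt1b and 11.2 for Tmem181b-ps, against a median of 1.08 over these genes, and nothing is read from this, since the genes were chosen for these values.

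The 5 genes whose profile over the 7 libraries was nearest to that of Dynlt1b, other than the 6 genes described, were the lncRNA gene Gm48168, the lncRNA gene Gm41253, Lpo, which encodes lactoperoxidase, the lncRNA gene Gm57856 and the pseudogene H2af-ps2. Their distance, the root mean square difference of log2(CPM + 0.1) centred on the wild-type mean, ran from 1.49 to 1.80. Tmem181b-ps, at 1.63, had rank 3 among all other genes, while Dynlt1c had rank 353, Dynlt1f at 1912, Dynlt1a at 13956 and Tmem181a at 14106. Nothing is read from these ranks, since the distance uses the values of Dynlt1b by which the genes were chosen. The 5 did not share the gap of mutant 1. H2af-ps2 was at 34.5 to 41.7 CPM in the wild type and 1.55, 1.53 and 1.23 CPM in mutants 1, 2 and 4, Lpo at 0.154 to 0.218 CPM in the mutants, and each lncRNA gene at 0.0921 CPM or less in every mutant. With a pseudocount of 1 or of 0.01, 2 of the 5 genes stayed among the nearest 5.

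The neighbours of the 6 genes on chromosome 17 were then examined, as the 21 other listed genes that lie between them or within 1 Mb of them. Of these, 9 rose, 6 fell and 6 did not pass the test (limma, FDR below 0.01), with a median log2 difference of 0.18. Over all tested genes 50.4% passed, 36.3% rising and 14.2% falling. After size factors 7 neighbours rose and 9 fell, against 27.0 and 25.1% of all tested genes.

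The 3 neighbours between the outermost of the 6 genes all changed, in both directions. Ppp1r2-ps1 (from 6373976 to 6375295), a copy related to the protein phosphatase inhibitor gene Ppp1r2 that lies near Dynlt1a, was at 2.30, 0.961, 0.670 and 2.05 CPM in wild type 1 to 4 and at 10.6, 12.1 and 11.0 CPM in the mutants. It rose by a log2 difference of 2.98 (SE 0.32, limma FDR 5.3e-06), and wild types 2 and 3 were its lowest libraries, as for Dynlt1a. How far reads can tell Ppp1r2-ps1 from the like-named Ppp1r2-ps6 was not measured, so the part of read sharing in this rise was not tested. The pseudogene Gm2792 (from 6389879 to 6412123) was at 2.42, 5.07, 3.53 and 2.48 CPM in the wild type and at 1.18, 1.09 and 0.706 CPM in the mutants, a log2 difference of -1.63 (SE 0.26, limma FDR 0.00014). Tmem181c-ps, between Dynlt1c and Dynlt1f, was at 4.61, 7.72, 7.82 and 4.74 CPM in the wild type and at 1.29, 0.904 and 1.14 CPM in the mutants, a log2 difference of -2.35 (SE 0.21, limma FDR 1.1e-06). Both pseudogenes that fell had their highest wild-type values in mice 2 and 3, as Dynlt1b did. The same order of the wild types was also seen in some genes outside the stretch. Wild types 2 and 3 were the highest for Tmem242, at 39.4, 48.8, 49.9 and 40.5 CPM in wild type 1 to 4. They were the lowest for Ppp1r2-ps6, at 10.8, 6.87, 6.27 and 12.1 CPM. Not every neighbour had this order: Tulp4 was at 177, 170, 180 and 181 CPM. Among 4 libraries such an order often arises by chance. Its share over all genes was not counted, so nothing is read from it. In the sum of the 3 Tmem181 genes, Tmem181a made up 14.9 to 25.8% in the wild type and 59.7, 87.6 and 87.5% in mutants 1, 2 and 4.

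Outside the stretch, the genes next to it did not share a direction. On the side of Tmem181a, Ppp1r2-ps6 was at 6.27 to 12.1 CPM in the wild type and 10.4 to 11.7 CPM in the mutants and did not pass (log2 difference 0.34, limma FDR 0.14), Tulp4 did not pass either at -0.03 (limma FDR 0.51) but fell after size factors, at -0.17 (limma FDR 0.0033), and Gtf2h5, a subunit of the repair and transcription factor TFIIH, rose by 0.40 (limma FDR 0.0002). On the side of Dynlt1f, Ezr, which encodes the membrane-cytoskeleton linker ezrin, rose from 15.6 ± 1.41 CPM (SD, n = 4) to 45.3 ± 2.29 CPM (SD, n = 3), a log2 difference of 1.53 (SE 0.08, limma FDR 9.9e-09). The lncRNA gene 1700122H20Rik fell, at -0.82, and Rsph3b, a copy of a radial spoke gene, rose by 0.26, a call that was lost after size factors. Further away, Rps6ka2, a ribosomal S6 kinase gene, rose by 1.06 and Arid1b, a subunit gene of a chromatin remodelling complex, by 0.61, while Unc93a2 fell, at -0.98. In all, of 9 neighbours on the Tmem181a side 3 rose and 1 fell, and of 9 on the Dynlt1f side 5 rose and 3 fell.

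**Figure D4:**
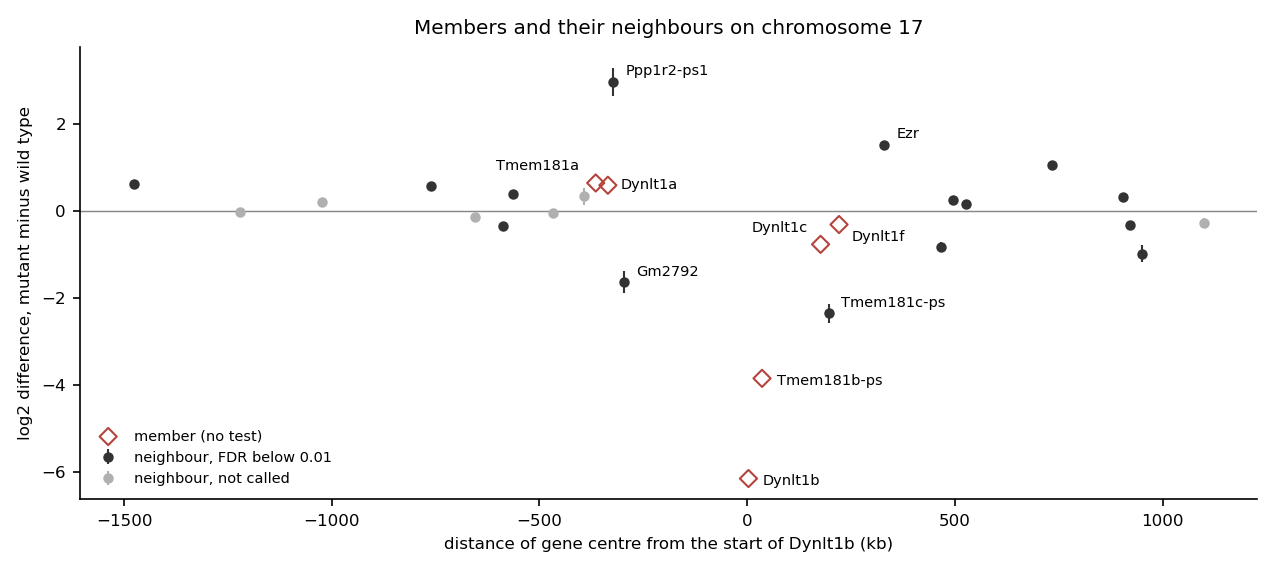
Log2 difference of mutant minus wild type (y axis, log2(CPM + 0.1) scale) against the distance of each gene's centre from the start of Dynlt1b (x axis, kb), for the 6 genes (open diamonds, no test) and 21 neighbours (circles with SE, dark where the limma FDR is below 0.01). The 2 lowest points are Dynlt1b at -6.15 and Tmem181b-ps at -3.85, and the highest is Ppp1r2-ps1 at 2.98.

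The other genes of the motor that DYNLT1 belongs to were examined as a list of 40 cytoplasmic dynein subunits, dynactin subunits, regulators and adaptors, of which 39 were in the table. Of these, 11 rose, 6 fell and 22 did not pass the test (43.6% called, against 50.4% of all tested genes), with a median log2 difference of 0.02 against 0.12 over all genes. After size factors 6 of the 39 rose and 14 fell, against 27.0 and 25.1% of all tested genes.

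Of the light chains related to DYNLT1, Dynlt3 was at 22.3 to 26.3 CPM in the wild type and 30.3 to 33.7 CPM in the mutants and rose by a log2 difference of 0.41 (limma FDR 0.0003). Dynlt2a3 fell from 62.5 ± 8.31 CPM (SD, n = 4) to 42.5 ± 1.99 CPM (SD, n = 3), a log2 difference of -0.55 (limma FDR 0.00015), and Dynlt5 fell, at -0.41 (limma FDR 0.00068). Dynlt2b did not pass, at -0.10 (limma FDR 0.05), but fell after size factors, at -0.24 (limma FDR 0.00037). Dynlt2a1 and Dynlt2a2, which lie close to Dynlt2a3 and are also on chromosome 17, varied widely within both groups. How far reads can tell these genes apart was not measured. The part of read sharing in the fall of Dynlt2a3 was thus not tested. Dynlt2a1 was at 20.2, 5.27, 2.47 and 48.4 CPM in the wild type and 29.2, 4.15 and 6.88 CPM in the mutants, and Dynlt2a2 at 19.0, 4.25, 21.1 and 10.8 CPM and 23.3, 2.87 and 6.48 CPM. Neither passed the test (limma FDR 0.87 and 0.4), and for both the highest mutant was mutant 1.

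Of the other classes of light chain, Dynll1 fell, at -0.22, and Dynlrb1, a roadblock light chain, rose from 11.2 ± 0.611 CPM (SD, n = 4) to 25.2 ± 2.00 CPM (SD, n = 3), a log2 difference of 1.16 (SE 0.08, limma FDR 9.7e-08). The light intermediate chain Dync1li1 rose by 0.70, the cargo adaptor Hook3 by 0.61 and Nin, which encodes the centrosomal dynein activator ninein, by 1.56, from a low level of 1.20 to 1.85 CPM to 4.17 to 5.08 CPM. Spdl1, an adaptor of dynein at kinetochores, fell, at -0.49.

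**Figure D5:**
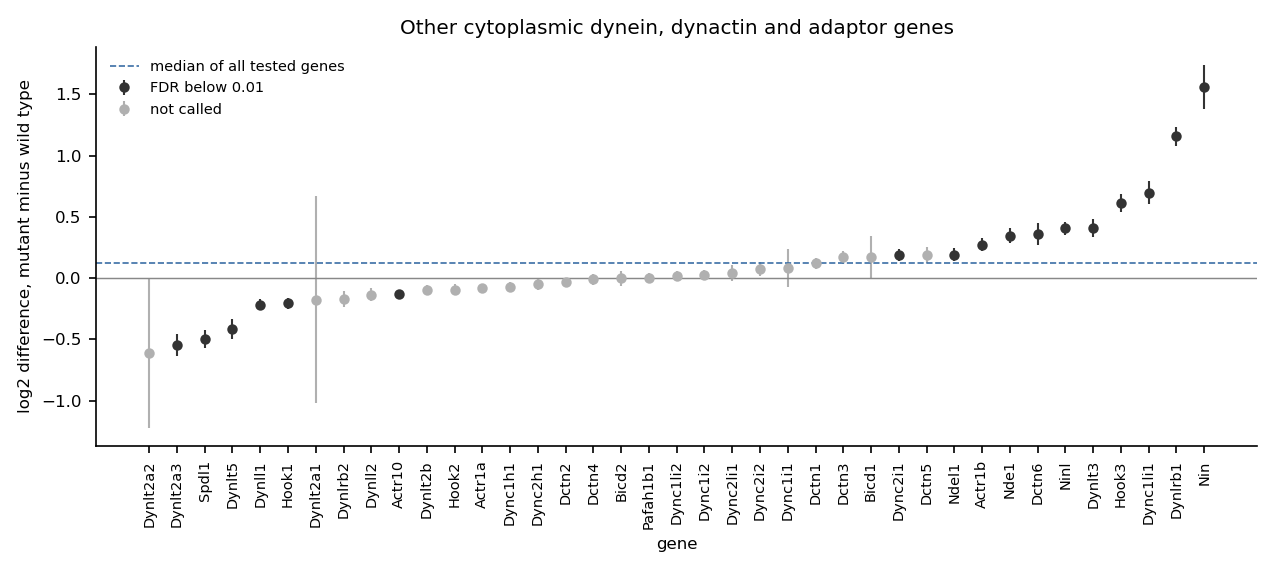
Log2 difference of mutant minus wild type with its SE (y axis, log2(CPM + 0.1) scale) for the 39 listed dynein, dynactin and adaptor genes in order of the difference, dark where the limma FDR is below 0.01, with a dashed line at the median of all tested genes, 0.12. Values run from -0.61 for Dynlt2a2, which did not pass, to 1.56 for Nin.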

How the data were processed

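RNA of whole testes (TruSeq RNA kit, paired reads) was measured in 4 wild-type and 3 Iqch-/- mice. Per the labels and the study's methods, the authors used Trimmomatic for trimming, Subread for mapping to GRCm39 and featureCounts for counting, and required 75 reads in 2 samples of a group. The strand setting, the handling of reads with several matches and the annotation release are not given in the sources used here. The deposited values are CPM that sum to 1000000 in each library. All were whole multiples of 1 step per library, within 0.01 of a step, and this step, 0.0266 to 0.0312 CPM, was taken as 1 read.

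Genes with at least 2.2 CPM in 2 samples of a group were tested with limma 3.58.1 (lmFit, eBayes with a trend, R 4.3.3) on log2(CPM + 0.1), with Benjamini-Hochberg adjustment over 17126 genes and calls at an FDR of 0.01. The fit was tested on simulated data. The 6 genes, the lists and the tests were chosen with earlier results of these data known. Named besides the 6 genes were Iqch, the other DYNLT genes, the 4 called genes with the largest change in each direction of the dynein list and of the neighbours, the 3 nearest neighbours on each side and those in between, and the 5 genes nearest in profile to Dynlt1b. Dynlt1-ps1 was added after its values were seen.

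GENCODE M39 held 17045 of the 17127 genes, and sequences were read from GRCm39 and aligned with Biopython 1.88. Python 3.11.15 ran the other steps, with pandas 2.3.3, NumPy 2.4.6, SciPy 1.17.1 and, for figures, matplotlib 3.10.9. Results were recomputed with other pseudocounts (1 and 0.01), other minimums (none and 5 CPM), size factors by median of ratios, a replicate block, and each library left out.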

Additional observations from a re-analysis of the deposited data

Results flagged for a closer look

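Of 37 items examined for a wild-type library far from the others, 2 passed Dixon's 95% critical value for 4 samples, and chance passes about 1 in 20. Dynlt1f was at 65.8 CPM in wild type 3 against 71.9 to 73.1 CPM in the others. Lpo was at 18.8 CPM in wild type 2 against 7.91 to 8.79 CPM in the others. The spread of Dynlt1a and Dynlt1b did not pass, since in both the libraries lay in pairs.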

How the results depend on the processing

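Under the other pseudocounts, size factors, the block and each library left out, the signs of the log2 differences of the 6 genes and of the sum of Dynlt1 copies held. Size factors moved the dynein list to 6 rising and 14 falling, Dynlt1c to -0.90 and Dynlt1f to -0.44, brought Dynlt2b (-0.24) and Tulp4 (-0.17) past the threshold and took Rsph3b (0.12) below it. They moved the rising share of all calls from 71.9 to 51.9%. A pseudocount of 1 gave -1.74 for Tmem181c-ps. Leaving out each library in turn gave -7.78 to -5.24 for Dynlt1b, -4.85 to -3.20 for Tmem181b-ps, -1.28 to -1.13 for the sum of Dynlt1 copies, 7237 to 8503 calls over all genes, 8 to 12 rising and 5 to 6 falling dynein genes, and 8 to 9 rising and 4 to 6 falling neighbours. For Dynlt2a1 they gave -0.99 to 0.55, positive without either wild type 1 (0.13) or 4 (0.55) and without mutant 2 (0.41) or 4 (0.05), and for Dynlt2a2 they gave -1.41 to 0.078, positive without mutant 2. The causes were not tested. Same-numbered samples deviated with correlations of 0.026, 0.009 and -0.098, so the numbers were not taken as pairs. With the replicate number as a block, in which wild type 3 has no partner, 7722 of all genes were called instead of 8640, Dynlt1b was at -6.03 and the neighbours counted 8 rising and 5 falling. The planned count test on reads was not run, since too few low values remained after the authors' filter to check the reads. The depth limits Dynlt1b in mutants 2 and 4, where it rests on 25 and 19 reads.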
